A study of Mus musculus with 8 samples.

Results

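The genes described here are 6 members of the STAT family of transcription factors: Stat2, Stat3, Stat4, Stat5a, Stat5b and Stat6. They were chosen by symbol from the deposited expression table and read by gene identifier in every library. All 6 were among the 57010 genes listed in the deposited files, and all 6 passed the filter on low counts that left 13378 genes to test. Every statement below covers these 6 genes and not the family as a whole. The cells were wild-type C57BL/6 mouse CD4 T cells, sorted as naive cells from peripheral lymph nodes, cultured in RPMI GlutaMAX with 10% FCS (fetal calf serum) and activated for 20 h on coated antibodies to CD3 and CD28 at 4 µg/mL each. The control group had 4 such cultures without added iron, and the group labelled FAC had 4 with iron supplementation. Each mouse number in the labels occurs once per group, and a library is named here by its group and mouse number. The labels used here give neither the iron dose nor the animals' age.

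STAT proteins wait in the cytoplasm of resting cells. When a cytokine binds its receptor, Janus kinases attached to the receptor chains phosphorylate a tyrosine near the end of the STAT protein, which then pairs with another STAT through its SH2 domain, enters the nucleus and binds DNA. In CD4 T cells each member is known for a different input: STAT2 for type I interferons, STAT3 for interleukin 6 and interleukin 21, STAT4 for interleukin 12, STAT5A and STAT5B for interleukin 2, and STAT6 for interleukin 4. STAT activity is thus set largely by phosphorylation, and only RNA levels were measured here.

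None of the 6 STAT genes passed the test of FAC against control (edgeR's quasi-likelihood test on expected counts, with a call where the p, adjusted by Benjamini-Hochberg over all genes tested, was under 0.05). The share called among all tested genes was 3.27%, or 438 genes. Also at an unadjusted p under 0.05 the count was 0 of 6 STAT genes, against 18.4% of all tested genes. With the mouse as a replicate block 6.87% of all genes were called, with DESeq2 5.55% (3.28% higher and 2.28% lower), and both again called 0 of the 6. The count over all genes depended on single libraries: it was 147 without FAC 3, 168 without FAC 2, 188 without control 1, 209 without control 2 and 247 without control 3. It was 342 without control 4, and rose to 549 without FAC 1 and to 549 without FAC 4. In all these fits the count of called STAT genes stayed at 0. The median log2 change of the 6 genes was 0.02, and their median absolute change was 0.06. Over all tested genes these medians were -0.0014 and 0.09.

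Library totals ran from 25410299 to 37350654 counts, and the STAT genes had between 228 counts (Stat2, control 1) and 10962 counts (Stat6, control 2). A count of 3, taken as the floor for detection, equals 0.0816 to 0.119 CPM (counts scaled to a common library total), below every STAT value. These limits cover counting error only, since reads carry no molecular identifiers. The summed level of 7 CD4 T cell markers was 2012 to 2083 TPM (transcript abundance per length, scaled to the same sum in each library) in the controls and 2112 to 2163 TPM with FAC, so those ranges did not overlap. Summed markers of B cells (at most 0.43 TPM), of myeloid and dendritic cells (7 genes, at most 0.2 TPM, Lyz2 and Siglech at 0) and of NK cells (4 genes, at most 0.99 TPM, Ncr1 at 0) were low in all libraries. The 2 CD8 T cell markers summed to 8.36 to 10.95 TPM in the controls and 6.6 to 9.55 TPM with FAC, and the 3 regulatory T cell markers to 41.8 to 45.4 TPM. The 3 erythroid markers summed to between 0 and 8.12 TPM in the controls and were at 0 in every FAC library. The part of these marker differences in the results below was not tested, and in bulk RNA fewer cells of a type and less RNA per cell cannot be told apart.

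Compared per transcript length, the 6 genes stood in a fixed order. Stat6 had the highest level, with a mean of 140 TPM over the 8 libraries and a range of 133 to 147. Stat5a followed at 113 TPM (104 to 120), and Stat3 at 55.3 TPM (49.5 to 63.6). Stat5b, the close paralog of Stat5a, was next at 39.9 TPM (36.0 to 43.8). Stat4 came next with 21.6 TPM (20.1 to 24.1), and Stat2 was lowest with 5.48 TPM (4.30 to 7.17). No library of one gene overlapped any library of its neighbour in the order, in either group. The narrowest step was from Stat6 to Stat5a, a ratio of 1.24 between the means, and the widest was from Stat4 to Stat2, a ratio of 3.94. Among all tested genes Stat6 lay at the 91.4th percentile of mean TPM and Stat2 at the 34.6th. The TPM sum of the 6 genes ran from 348 to 384 in the controls and from 371 to 399 with FAC.

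**Figure D1:**
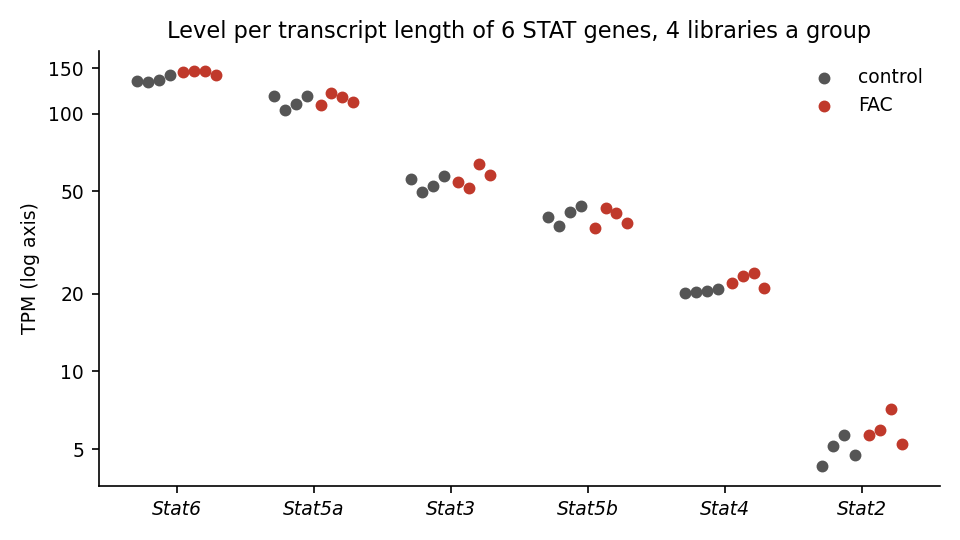
Level of each of the 6 STAT genes in TPM (log axis) in every library, 4 control and 4 FAC points per gene, ordered by mean. The ranges of neighbouring genes do not overlap, from Stat6 at 133 to 147 TPM down to Stat2 at 4.30 to 7.17 TPM.

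The share of each gene in the summed STAT level was read per library. Stat6 made up 36.98% ± 0.886 of the summed TPM in controls and 37.8% ± 0.963 with FAC (mean ± SD, n = 4 each). Stat5a held 30.4% ± 0.818 and 29.7% ± 0.757, and Stat3 14.6% ± 0.392 and 14.8% ± 1.21. Stat5b made up 11.0% ± 0.468 of the pool in controls and 10.2% ± 0.541 with FAC. The smallest parts were those of Stat4, 5.59% ± 0.183 and 5.90% ± 0.194, and of Stat2, 1.36% ± 0.191 and 1.56% ± 0.170. None of these shares passed a two-sided exact permutation test over the 70 assignments of the 8 libraries, whose smallest possible p is 0.0286. The lowest value was that of Stat4, higher with FAC in 4 of 4 mice (exact permutation p = 0.0857, adjusted p = 0.557 over the 13 exact tests of shares, ratio and lengths). Adjusted over 13 tests, a single quantity could not pass even at the smallest possible p. Not passing is therefore no sign that shares, ratio or lengths were equal between the groups.

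Stat2 is the member of the interferon response: with IRF9 it forms part of ISGF3, the complex that binds interferon-stimulated response elements. Its promoter window, here the 250 bases before the annotated start and 50 after it from RefSeq on GRCm38.p6, was the only one of the STAT windows with motifs of 2 kinds, and its first 250 bases are shown for that reason. Capitals mark an interferon-stimulated response element (ISRE: TTTC, any 2 bases, TTTC; first base at -222 from the start) and a wider form of the gamma-activated site, called the N4 site here (TTC, any 4 bases, GAA; at -210). The piece lies at chr10:128270248-128270497 on the plus strand.

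Stat2: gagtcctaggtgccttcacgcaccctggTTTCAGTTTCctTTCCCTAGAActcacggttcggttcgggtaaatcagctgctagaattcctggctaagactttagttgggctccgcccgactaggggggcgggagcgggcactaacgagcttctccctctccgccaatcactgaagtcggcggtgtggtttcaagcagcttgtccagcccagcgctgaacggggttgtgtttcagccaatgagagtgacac

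Stat4 had the other window with a motif among the 6 genes: its second annotated start carries the ISRE on the opposite strand, so that the printed letters are its reverse complement, with the first base at -97. The piece lies at chr1:52008120-52008179 (GRCm38.p6) on the plus strand.

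Stat4: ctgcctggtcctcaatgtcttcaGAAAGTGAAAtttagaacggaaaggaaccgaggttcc

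All 6 genes matched 1 or 2 promoter windows, 9 in all. Both strands of each were searched for the ISRE, for the N4 site and for the gamma-activated site (GAS, TTCNNNGAA), the element that STAT dimers bind. Of all 32851 RefSeq promoter windows of the same length, 3.44% held the ISRE, 6.95% the N4 site and 8.30% the GAS. The windows of Stat3, Stat5a, Stat5b and Stat6 held none of these letters. A match is a description of the letters and no measure of binding.

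The Stat2 level (ENSMUSG00000040033) was 9.04, 10.0, 11.5 and 9.79 CPM in controls 1 to 4. With FAC it was 12.2, 10.5, 12.2 and 10.7 CPM in mice 1 to 4. Control 3 lay among the FAC libraries, so the groups overlapped, although FAC was above control within each of the 4 mice. The difference by mouse was largest in mouse 1, 0.43 on the log2 scale, and was 0.07, 0.08 and 0.13 in mice 2, 3 and 4. Whether mouse 1 is an outlier in this difference was not tested. The mean was 10.1 ± 1.05 CPM in controls and 11.4 ± 0.910 CPM with FAC, a log2 change of 0.17 (SE 0.10, edgeR adjusted p = 0.371). The 95% interval reached from -2.53% to 30.5%. Stat2 thus had the widest interval of the 6 genes, on 228 to 383 counts per library.

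Stat4 relays interleukin 12 signals in type 1 helper cells. Its level (ENSMUSG00000062939) was 36.4, 37.6, 37.8 and 38.0 CPM in controls 1 to 4 and 39.4, 40.8, 41.3 and 38.6 CPM in FAC 1 to 4. Every FAC library lay above every control library, the nearest being FAC 4 and control 4 of the same mouse. This held for 2 of the 6 STAT genes, Stat4 and Stat6. Of all tested genes 11.1% had groups that did not overlap, and 6.17% had all FAC libraries above. The mean was 37.4 ± 0.733 CPM in controls and 40.0 ± 1.252 CPM with FAC, a log2 change of 0.10 (SE 0.05, edgeR adjusted p = 0.302). The 95% interval reached from -0.390% to 14.6%. On the TPM scale Stat4 was 20.1 to 20.9 in controls and 21.1 to 24.1 with FAC, again without overlap. RSEM gave Stat4 a fractional count in 7 of 8 libraries. In GENCODE M21, which annotates a build older than the authors', the gene shares 29929 bases with the non-coding transcript Gm28177 on the same strand and 432 bases with the pseudogene Gm3940 on the opposite strand, and the part of that overlap in the Stat4 values was not tested.

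Stat6, which relays interleukin 4 signals in type 2 helper cells, was the other gene whose groups did not overlap. Its level (ENSMUSG00000002147) was 300.05, 298.1, 299.6 and 299.9 CPM in controls 1 to 4 and 308.6, 308.3, 305.0 and 313.5 CPM in FAC 1 to 4. The controls lay within 2 CPM of each other, and all FAC libraries were above them. The mean was 299.4 ± 0.890 CPM in controls and 308.8 ± 3.53 CPM with FAC, a log2 change of 0.04 (SE 0.03, edgeR adjusted p = 0.467). The 95% interval, from -1.40% to 7.90%, was the narrowest of the 6. It draws on the spread seen over all genes and not on that of these Stat6 libraries alone. In TPM the Stat6 difference was larger: 136 ± 3.49 in controls and 145 ± 2.33 with FAC, a log2(TPM + 1) change of 0.10 (limma adjusted p = 0.201; 0.201 to 0.735 over the 17 alternatives). The groups stayed apart on that scale too, with 141 TPM in control 4 just below 142 TPM in FAC 4.

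Stat3 relays interleukin 6 and interleukin 21 signals and is needed for type 17 helper cells. Its level (ENSMUSG00000004040) was 143, 136, 139 and 144 CPM in controls 1 to 4 and 138, 136, 141 and 133 CPM in FAC 1 to 4. FAC was above control in 2 mice and below it in 2, and the groups overlapped. The mean was 140 ± 3.79 CPM in controls and 137 ± 3.20 CPM with FAC, a log2 change of -0.03 (SE 0.04, edgeR adjusted p = 0.673). The sign depended on the scale: in log2(TPM + 1) the Stat3 difference was 0.08. TPM divides by the abundance-weighted transcript length, which for Stat3 was 3777 ± 95.7 bases in controls and 3595 ± 266 with FAC. FAC 3 and FAC 4 had the shortest values, 3336 and 3404 bases, and the difference in length did not pass the exact permutation test (p = 0.343, adjusted p = 0.557). With neither scale did Stat3 pass.

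Stat5a and Stat5b are neighbouring genes on mouse chromosome 11, with Stat3 next to Stat5a, and both relay interleukin 2 signals. Stat5a (ENSMUSG00000004043) was at 252, 239, 236 and 242 CPM in controls 1 to 4 and at 235, 259, 240 and 231 CPM in FAC 1 to 4. The highest and the lowest of these 8 values were both in FAC libraries. The mean was 242 ± 7.14 CPM in controls and 242 ± 12.5 CPM with FAC, a log2 change of -0.0038 (SE 0.04, edgeR adjusted p = 0.974). The 95% interval for Stat5a, -6.22% to 6.07%, spanned both directions. Its sign turned without control 1, FAC 1 or FAC 4 (0.02, 0.01 and 0.02) and in log2(TPM + 1) (0.03). Stat5b (ENSMUSG00000020919) was at 137, 132, 143 and 147 CPM in controls 1 to 4 and at 123, 139, 139 and 131 CPM in FAC 1 to 4. It was lower with FAC in mice 1, 3 and 4 and higher in mouse 2, and the groups overlapped. The mean was 140 ± 6.52 CPM in controls and 133 ± 7.51 CPM with FAC, a log2 change of -0.07 (SE 0.05, edgeR adjusted p = 0.491). The interval of that change was -11.2% to 2.49%. Per length, Stat5a exceeded Stat5b by a ratio of 2.63 to 2.96 in controls and 2.80 to 3.01 with FAC, and the log2 ratios of 1.47 ± 0.0792 and 1.54 ± 0.0494 gave no difference that passed the exact permutation test (p = 0.229, adjusted p = 0.557).

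**Figure D2:**
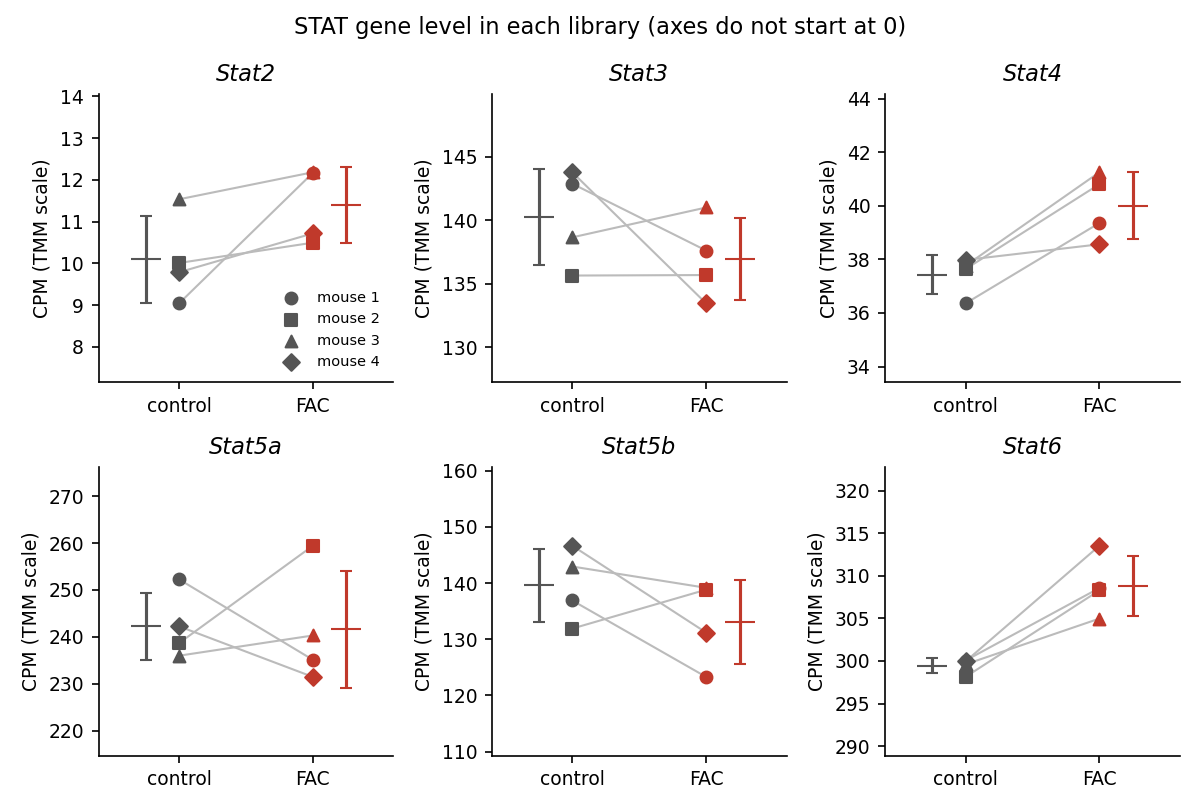
CPM (TMM scale) of each STAT gene in every library, 1 panel per gene with its own axis that does not start at 0; lines join the cultures of a mouse, and bars beside the points give mean ± SD (n = 4). Stat4 and Stat6 have all FAC points above all control points, by 0.10 and 0.04 in log2 units, and the other 4 genes overlap; Stat3 and Stat5a turn sign on the TPM scale.

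On the authors' deposited normalised signal, whose ratio to the counts varies between genes, the separation of Stat4 and Stat6 did not hold. The Stat4 signal was 1087, 1135, 1104 and 1120 in controls 1 to 4 and 1169, 1232, 1248 and 1115 in FAC 1 to 4. FAC 4 lay below control 2 and control 4 on that scale. For Stat6 the signal was 8732, 9002, 8706 and 9088 in controls 1 to 4 and 9266, 9348, 9137 and 9053 in FAC 1 to 4, and FAC 4 lay below control 4. The log2(signal + 1) change was 0.10 for Stat4 and 0.05 for Stat6, beside 0.22 for Stat2, 0.03 for Stat3, -0.02 for Stat5a and -0.08 for Stat5b. None passed (limma adjusted p = 0.399 for Stat2, the lowest, to 0.901 for Stat5a, the highest). Over all 17 alternatives the lowest adjusted p of any STAT gene was 0.201, for Stat6 on log2(TPM + 1).

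The split between Stat5a and Stat5b is an estimate, because the genes share long identical stretches. Their coding sequences had 2394 and 2361 bases (GENCODE M21). Over aligned positions without a gap they were 90.2% identical, against at most 57.1% for any of the other 14 pairs of the 6 genes. Of the 50-base windows of the Stat5a coding sequence, 608 of 2345 (25.9%) occurred unchanged in Stat5b, and no other pair shared such a window. The longest identical run, of 324 bases, covers coding bases 571 to 894 of both genes. Its first 150 bases, coding bases 571 to 720, are printed because a read that falls inside them matches both genes equally.

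Stat5a and Stat5b: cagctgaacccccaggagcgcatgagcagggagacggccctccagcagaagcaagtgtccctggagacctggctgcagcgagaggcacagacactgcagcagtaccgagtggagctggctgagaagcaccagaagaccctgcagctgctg

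The expected counts of the pair were fractional. In all 8 libraries the Stat5a and the Stat5b count were each fractional while their sum was whole, for example 6362.88 and 3453.12 counts in control 1, with a sum of 9816. Stat2, Stat3 and Stat6 had whole counts in 8 of 8 libraries (within 0.005). The Stat5a to Stat5b ratio thus depends on how RSEM divided the shared reads. GENCODE M21 also places the ends of Stat3 and Stat5a across each other by 72 bases on opposite strands, and those of Stat6 and Nab2 by 40 bases, which strand-specific counting would separate. The strand setting of the counting is unknown.

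**Figure D3:**
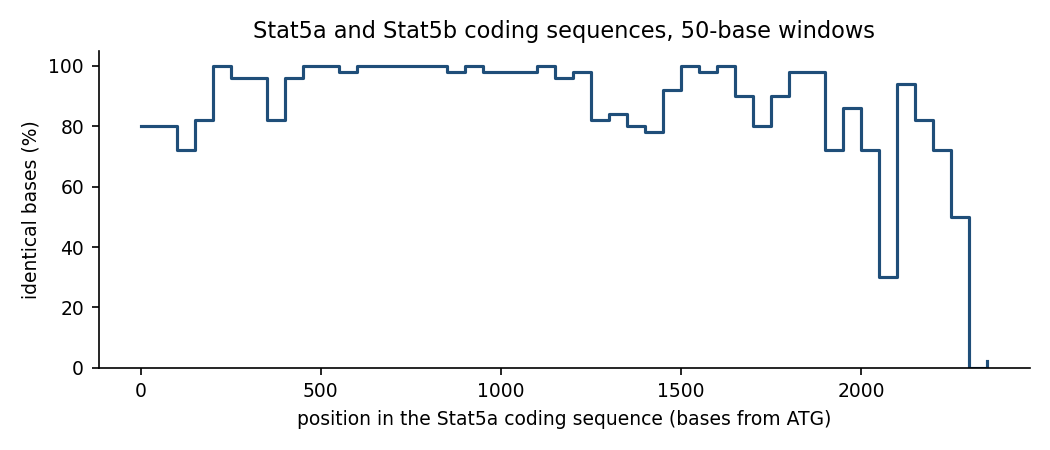
Percent identical bases between the Stat5a and Stat5b coding sequences in 50-base windows along Stat5a, from the start codon. 12 of the 48 windows are at 100%, most of them before base 1250, and identity drops at the end. Alignment gaps count as not identical here, so the drop includes gaps. The 90.2% identity in the text leaves gaps out.

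The abundance-weighted transcript length, a measure of which transcripts of a gene were present, was tested in the same way as the shares, and no difference passed. As with the shares, a single length could not pass after the adjustment, so this is no sign of equal lengths. The abundance-weighted length of Stat2 was 2980 ± 136 bases in controls and 2872 ± 285 with FAC (exact permutation p = 0.486). That of Stat4 was 2689 ± 31.7 and 2662 ± 57.9 bases, and that of Stat6 3217 ± 67.4 and 3177 ± 66.3 bases (exact permutation p = 0.457 and 0.314). Stat5a and Stat5b differed by less than 10 bases between the group means, on SDs of 68.0 to 149 bases.

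Pairs of STAT genes were also compared across the 8 libraries. Over log2 CPM, Stat2 and Stat4 had the highest correlation of the 15 pairs (Pearson r = 0.67), followed by Stat4 and Stat6 (0.56) and by Stat3 and Stat5b (0.56), and Stat3 and Stat6 had the lowest (-0.59). After removing the group means, Stat4 and Stat6 gave -0.78 and Stat4 and Stat5b 0.63; the sign for Stat4 and Stat6 was thus opposite to that over all 8 libraries. These are descriptions over 8 libraries in 2 groups. Among 5426 genes with a mean log2 CPM of 5 or more, the profiles most like Stat4 were those of Map4k2, Adpgk and Syvn1, each with r = 0.98 over the 8 libraries. Those most like Stat6 were Acat2, Rdh11 and Rassf2 (0.96, 0.96 and 0.95). For Stat2 they were Pacs2, Odf2 and Neu1 (0.91, 0.90 and 0.88), and for Stat3 Tarbp1, Qser1 and Ap1ar (0.92, 0.91 and 0.90). Stat5a was most like Wbp4, Tbc1d10b and Golim4 (0.84 for each), the lowest values of the 6, and Stat5b most like Sos2, Samd4b and Lrrc41 (0.91 for each). Of these 18 genes Map4k2, Acat2, Rdh11 and Rassf2, the likes of Stat4 and Stat6, were called, all higher with FAC (edgeR adjusted p = 0.0113, 2.81e-05, 0.00747 and 0.0304), against 3.27% called and 2.18% called higher over all tested genes. They were chosen for their likeness to genes whose FAC values all lie above the controls, so their direction is in part set by the choice and is no result of its own.

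The pathway around the 6 genes was read from 13 lists of kinases, receptor chains, regulators and textbook targets. These lists were chosen with earlier results of these data known. Counts and shares within them are therefore descriptions and no test of the pathway. Of 147 listed genes found in the files, 114 were tested, 0 were higher and 10 lower with FAC, that is 8.77% lower against 1.1% of all tested genes (2.18% were higher). Their median log2 change was -0.06. With the mouse as a replicate block 3 were higher and 19 lower, where 4.07% and 2.8% of all genes were called in those directions. In 16 listed genes all FAC libraries were below all controls, against 4.89% of all tested genes. In 1 listed gene all FAC libraries were above, against 6.17% of all tested genes.

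All 4 Janus kinase genes were expressed and none was called, where 3.27% of all tested genes were called. Jak1, the partner of most of these receptors, was at 335 ± 15.3 CPM in controls and 352 ± 4.86 with FAC (log2 change 0.07, edgeR adjusted p = 0.322). Jak2 was at 257 ± 7.58 and 276 ± 18.5 CPM (0.10, edgeR adjusted p = 0.267), and Tyk2 at 58.3 ± 5.13 and 64.8 ± 4.55 CPM (0.15, edgeR adjusted p = 0.236). Jak3, which pairs with the common gamma chain, was at 104 ± 9.42 and 118 ± 10.8 CPM (0.18, edgeR adjusted p = 0.198). FAC was above control in 4 of 4 mice for Jak1, Jak2 and Jak3, and Jak3 was called with the replicate block (edgeR adjusted p = 0.0343; 0.0343 to 0.461 over the alternatives).

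Upstream of Stat4, Il12rb1, which encodes the receptor chain shared by interleukin 12 and interleukin 23, was the only called gene among the 17 receptor chains tested. Of all tested genes 3.27% were called, 1.1% lower. The Il12rb1 level was 77.7, 89.1, 85.4 and 97.4 CPM in controls 1 to 4 and 61.9, 63.4, 67.8 and 67.1 CPM in FAC 1 to 4. All FAC libraries were below all controls, with a log2 change of -0.43 (SE 0.06, edgeR adjusted p = 0.00212). On length-scaled values the call was lost: limma on log2(TPM + 1) gave -0.31 with an adjusted p of 0.165, and the range over the alternatives was 4.09e-09 to 0.292. The second interleukin 12 chain, Il12rb2, was low in level, at 0.726 CPM in controls and 0.575 CPM with FAC (-0.33, SE 0.32). Stat4 itself stood at 37.4 and 40.0 CPM in the same libraries.

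Of the receptor chains upstream of Stat2, Ifnar1 was at 36.0 and 41.6 CPM (0.21, edgeR adjusted p = 0.116; 0.0164 with the replicate block, 0.0164 to 0.542 over the alternatives), Ifnar2 at 17.7 and 17.1 CPM and Il10rb at 10.7 and 11.2 CPM, each in controls and FAC. Upstream of Stat3, Il6ra was at 88.0 and 74.3 CPM and missed the threshold (-0.24, edgeR adjusted p = 0.0513), but passed it with the replicate block (0.00416), without control 2 (0.028) and without FAC 3 (0.0492; 0.00109 to 0.580 over the alternatives). Il27ra stood at 86.8 and 93.2 CPM, Il6st, the shared gp130 chain, at 198 and 193 CPM, Il21r at 90.9 and 89.1 CPM, and Il10ra at 0.957 and 1.09 CPM. Il27ra was the chain here with all FAC libraries above the controls, which held for 6.17% of all tested genes. It was not called (edgeR adjusted p = 0.182). Upstream of Stat5a and Stat5b, Il2rb was at 235 and 209 CPM (-0.17, edgeR adjusted p = 0.0601; 0.0112 with the replicate block, 0.027 without control 1, 0.046 without FAC 4, 0.00832 to 0.465 over the alternatives). Il2ra was at 441 and 416 CPM and Il2rg, the common gamma chain, at 449 and 458 CPM. Lower in level were Il15ra (18.3 and 16.3 CPM), Crlf2 (15.01 and 14.4 CPM) and Il7r (2.05 and 1.90 CPM). Il4ra, upstream of Stat6, was at 132 and 138 CPM (0.06, edgeR adjusted p = 0.455). Ifnlr1, Il23r, Lifr, Osmr, Il9r, Csf2rb and Il13ra1 had at most 5 counts in any library and were not tested.

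**Figure D4:**
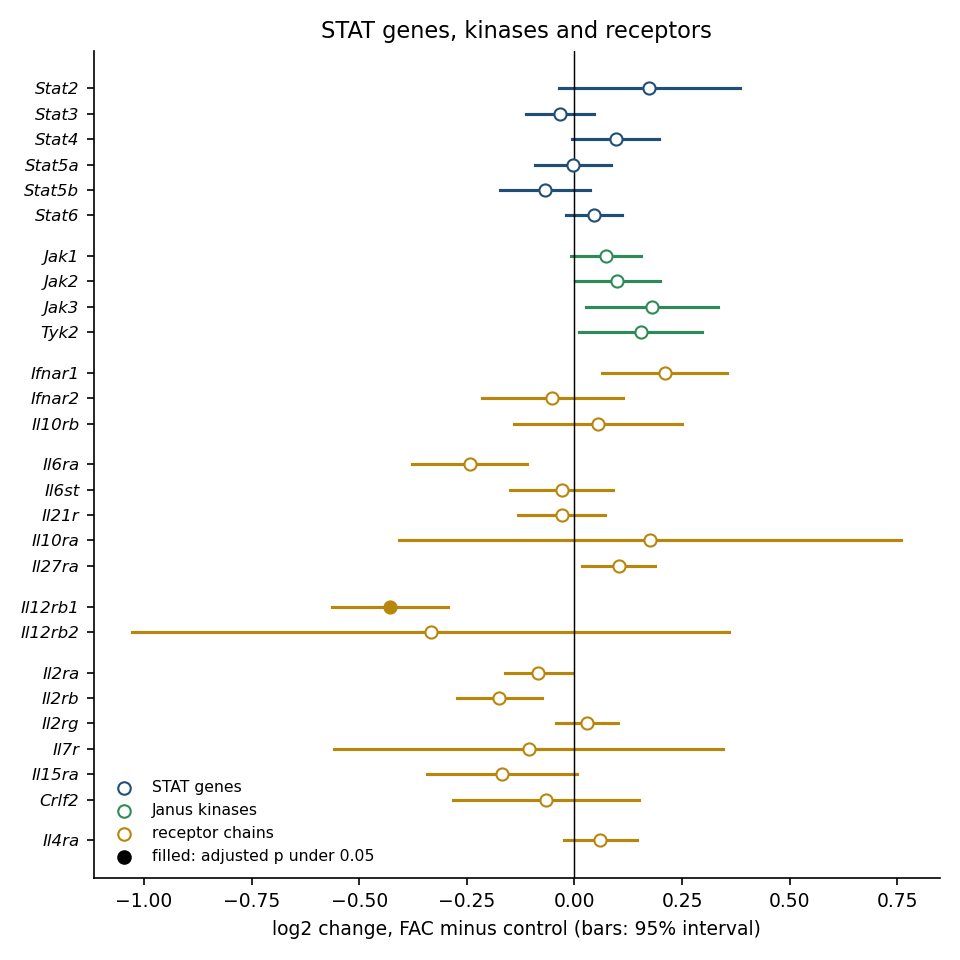
Log2 change with FAC (point) and its 95% interval (bar) from edgeR for the 6 STAT genes, the 4 Janus kinases and the 17 receptor chains tested, filled where the adjusted p is under 0.05. Il12rb1 at -0.43 is the only filled point, and the intervals of all 6 STAT genes include 0; Stat3, Stat5a, Ifnar2, Il6st and Il21r turn sign on the TPM scale.

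Listed targets of each STAT protein were counted in the same way, and a listed target can have other regulators. Of 24 matched interferon targets of STAT2, 11 were tested and 0 called, where 3.27% of all tested genes were called. The median log2 change of these targets was -0.0014. Among them was Irf9, the partner of STAT2, at 20.9 and 22.6 CPM (0.11, edgeR adjusted p = 0.515). Those not tested had at most 17 counts in any library. The 15 tested STAT3 targets had a median of -0.17.

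Of 13 tested STAT4 targets, 3 (23.1%) were lower, against 1.1% of all tested genes: Tbx21, Furin and Gadd45b. The list's median was 0.0024. Tbx21, which encodes the type 1 regulator T-bet, had the largest fitted change of the tested list genes, -4.56 (SE 0.40, edgeR adjusted p = 1.67e-05), a size that is uncertain because FAC 3 and FAC 4 held 3 counts and 1 count. Furin, a proprotein convertase gene, went from 178 ± 3.92 to 140 ± 3.64 CPM (-0.35, edgeR adjusted p = 8.94e-05). Gadd45b, a stress-response gene, went from 50.8 ± 3.15 to 42.4 ± 1.12 CPM (-0.26, edgeR adjusted p = 0.0192), and the call was lost without control 1, control 3 or FAC 3 (0.0648, 0.0572 and 0.0673; 8.13e-04 to 0.196 over the alternatives).

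The STAT5 list had 5 lower genes of 24 tested (20.8%), Cish, Lta, Tnfrsf4, Ccr8 and Rgs1, and a median of -0.11. Over all tested genes 1.1% were lower. With the replicate block 10 of the 24 were lower, against 2.8% of all tested genes. Cish, an inhibitor of cytokine receptors that STAT5 induces, had 123 to 128 CPM in controls and 89.8 to 98.3 CPM with FAC (-0.40, edgeR adjusted p = 8.46e-05). Lta, the lymphotoxin alpha gene, had 171 to 199 CPM and 124 to 146 CPM (-0.50, edgeR adjusted p = 5.23e-04), and its call was lost in unfiltered TPM (limma adjusted p = 0.0761, the highest of the alternatives, which reached down to 4.07e-13). Rgs1, a regulator of G protein signalling, and the chemokine receptor gene Ccr8 changed by -0.27 and -0.33 (edgeR adjusted p = 0.0118 and 0.0172), and limma on log2(TPM + 1) did not call them (0.0702 and 0.105; ranges over the alternatives 3.12e-05 to 0.154 and 4.99e-04 to 0.202). Tnfrsf4, which encodes the costimulatory receptor OX40, changed by -0.14 (edgeR adjusted p = 0.0422) and was not called when any library except FAC 1 was left out, with values from 0.0573 without FAC 4 to 0.154 without FAC 3. Ccr8 is also the 1 called gene of 9 tested STAT6 targets (11.1%, against 1.1% of all tested genes lower), whose median was -0.07.

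Cish and Lta are the called genes whose promoter windows held a GAS, 2 of the 7 called genes with a window (10 were called), where 9.55% of all genes with a window held one. Their sequences are shown for the letters that STAT5 dimers are known to recognise. The 7 genes come from lists of textbook STAT targets. Windows of listed genes that were not called were not compared, so the 2 of 7 is a description only. In Cish the 2 sites, at 0 and 11 from the annotated start, lie in the piece chr9:107296654-107296683 (GRCm38.p6, plus strand). In Lta the 250 bases before the start, chr17:35205352-35205601 (GRCm38.p6) on the minus strand, hold a GAS at -152, an N4 site at -91 and a GAS at -16, in capitals.

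Cish: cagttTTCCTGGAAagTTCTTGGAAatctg

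Lta: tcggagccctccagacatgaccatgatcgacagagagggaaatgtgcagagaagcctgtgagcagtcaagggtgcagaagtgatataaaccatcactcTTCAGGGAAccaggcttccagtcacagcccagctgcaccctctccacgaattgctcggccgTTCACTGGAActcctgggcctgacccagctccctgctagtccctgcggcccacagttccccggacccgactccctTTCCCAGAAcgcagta

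Among the regulators, 0 of 21 partners and modifiers and 1 of 14 phosphatases and SOCS genes (Cish) were called, with medians of -0.05 and -0.06. Over all tested genes 3.27% were called, and 2.8% were lower with the replicate block. With the replicate block 2 of the 14 were lower, the second being Socs1, which encodes an inhibitor of Janus kinases and was named after its values were seen (-0.36, edgeR adjusted p = 0.00424 with the block and 0.0561 without it).

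**Figure D5:**
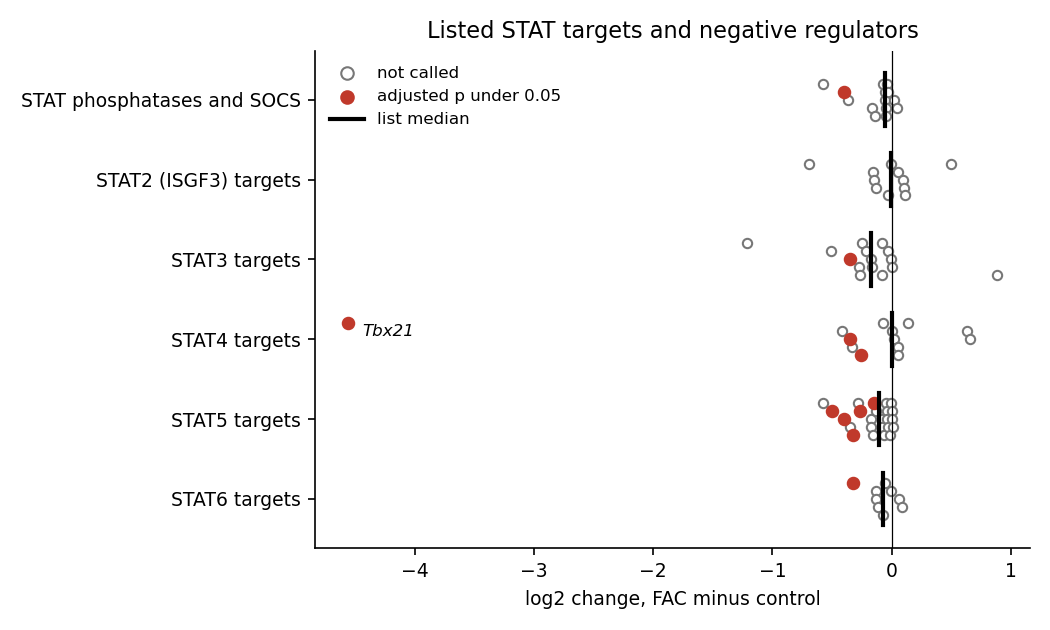
Log2 change with FAC of the tested members of the regulator list and the 5 target lists, 1 point per gene, red where the edgeR adjusted p is under 0.05, with the list median as a bar. All red points lie below 0, with Tbx21 at -4.56, and the list medians lie between -0.17 and 0.0024.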

How the data were processed

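RNA was sequenced from 8 cultures, 4 control and 4 FAC, with 250 ng of RNA per library in a stranded mRNA kit, per the labels' protocols. The submitters' processing notes name RSEM 1.3.1, STAR 2.7.6a, DESeq2 1.26.0, DESeq, FastQC, R 3.6.3 and the build GRCm39, without saying what each did. The annotation release and the strand setting are not stated. The authors deposited RSEM gene tables, per the file headers, with expected counts that are not scaled between libraries. The same deposited tables hold TPM, which RSEM divides by transcript length and scales to one sum, and abundance-weighted transcript lengths in bases. A deposited table of a normalised signal for 13751 genes served as an alternative only; how it was scaled is not stated.

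Expected counts were rounded and tested with edgeR 4.0.16 (R 4.3.3): quasi-likelihood test, TMM factors, expression filter (minimum count 10, minimum total 15, keeping 99.9% of counts), group alone as the term, Benjamini-Hochberg over 13378 genes, call under 0.05. The SE is the absolute log2 change over the square root of F. CPM are on the TMM scale. Alternatives were RLE factors, no filter, DESeq2 1.42.0, the mouse as a replicate block, each library left out, limma 3.58.1 on log2(TPM + 1), on log2(TPM + 0.1), on TPM without a filter and on the signal, and an effective-length offset. Shares, ratio and lengths were tested with exact permutations (scipy 1.17.1); pairs of coding sequences were aligned with MAFFT 7.526. The edgeR fits (with and without the block), DESeq2 and limma were also run on simulated counts. The exact tests, motif searches and alignments were not.

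The mouse number in the titles was taken to mark cultures of the same animal. Deviations from group means correlated between cultures of a mouse with r = 0.137, 0.0165, 0.0647 and 0.139 (mice 1 to 4), and at most 0.0331 between mice. Libraries of a group were counted as separate replicates. The p-values of edgeR, DESeq2 and limma rest on the spread between them combined with the spread seen over all genes.

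Genes named are the 6 STAT genes, tested Janus kinases and receptor chains, called genes of the other lists and the 3 genes most like each STAT gene. Some listed genes are not reported here by name, but stay in the counts and medians of their lists. Members and lists were chosen with earlier results of these data known. The reference annotation is of an earlier build than the authors', so no gene coordinates are given, and promoter pieces carry RefSeq's own build.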

Additional observations from a re-analysis of the deposited data

How the results depend on the processing

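The count of called STAT genes was 0 under all 17 alternatives, and the direction of Stat2 (0.13 to 0.27), Stat4 (0.079 to 0.14), Stat5b (-0.094 to -0.033) and Stat6 (0.032 to 0.099) held throughout. With the mouse as replicate block the STAT changes were 0.17 for Stat2, -0.034 for Stat3, 0.096 for Stat4, -0.0045 for Stat5a, -0.068 for Stat5b and 0.045 for Stat6, and none was called. Stat3 turned to 0.0770, 0.0783 and 0.0770 with log2(TPM + 1), log2(TPM + 0.1) and unfiltered TPM, to 0.0306 on the deposited signal and to 0.0441 with the length offset. Stat5a turned to 0.0301, 0.0304 and 0.0301 in the TPM settings and ran from -0.0441 to 0.0154 when a library was left out, with 0.0150 without control 1, 0.00867 without FAC 1 and 0.0154 without FAC 4.

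The count of changed genes, 438, became 736 without the filter, 744 with DESeq2, 919 with the replicate block, 97, 117 and 47 in the TPM settings, 156 on the signal and 195 with the length offset, and 147 to 549 when a library was left out. The share of calls that were higher, 66.4%, was 76.9% with log2(TPM + 0.1) and 54.4% without FAC 3. Of the pathway genes, 0 were higher. That count was 1 without the filter, with DESeq2, on the signal and with the length offset, 3 with the replicate block, and 0 to 1 when a library was left out. The lower count of 10 became 17 with DESeq2, 19 with the replicate block, 4, 4 and 3 in the TPM settings, 6 on the signal and 6 with the length offset, and 7 to 12 when a library was left out. The cause was not tested.

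Ifnar2 turned to 0.0619, 0.0661 and 0.0619 in the TPM settings, 0.0186 on the signal and 0.0243 with the length offset. Il6st turned to 0.0471, 0.0480 and 0.0471 in TPM, 0.000529 on the signal and 0.0113 with the offset, and Il21r to 0.00666, 0.00674 and 0.00666 in TPM. When a library was left out, Ifnar2 ran from -0.0892 to 0.00428, Il10rb from -0.00238 to 0.109, Il6st from -0.0759 to 0.00758, Il7r from -0.237 to 0.0171 and Crlf2 from -0.107 to 0.0287. The Stat3 share difference was -0.424 percentage points from CPM and -0.235 to 0.688 when a library was left out. The Stat5a length difference was 1.47 bases from effective lengths and -34.3 to 29.9 bases when a library was left out; that of Stat5b ran from -30.8 to 80.9 bases. None of these passed a test. Stat2 had the fewest counts of the STAT genes and the widest interval, up to 30.5%; the part of depth in that width was not tested.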
